A study of Mus musculus with 6 samples.

Results

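The p53 target and DNA damage response genes were followed here in irradiated mouse thalamus, because all mice of the comparison had been irradiated with 50 Gy. The 39 genes were taken by symbol from the deposited count table, which lists 21899 genes, and all 39 were found, each in 1 row. The comparison is between 2 groups of 3 male C57BL/6J mice (genotype WT, 8 to 10 weeks old on purchase). RC mice received radiation and the control virus AAV9 GFAP104::tdTomato, and RN mice received radiation and AAV9 GFAP104::mND1-tdTomato, which adds mouse NeuroD1 under the same GFAP promoter, a promoter active in astrocytes. Both groups had a single gamma dose to the left thalamic region, 2 µL of virus 2 weeks later, and removal of thalamus tissue for bulk RNA sequencing 6 weeks after irradiation. Each library mixes the RNA of all cell types in the tissue, so fewer cells of a type and less RNA per cell cannot be told apart. Unirradiated mice were not analysed here, so the values compare both viruses after radiation and do not measure the response to radiation itself.

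When DNA breaks, the kinases ATM and ATR are activated at the damage and switch on the checkpoint kinases CHK2 and CHK1, and together they stabilise p53, which is otherwise degraded through its own target MDM2. p53 then raises the transcription of genes that stop the cell cycle, repair DNA, supply nucleotides or start apoptosis. Much of this control acts on protein rather than on RNA, so the transcripts of the kinases and of p53 itself are poor gauges of pathway activity, whereas those of its targets follow it more closely. In brain, several of the same genes (Gadd45b, Btg2, Plk2 and Plk3) are also induced by neuronal activity and by stress signals that do not need p53.

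The p53 protein binds a repeated 10-base motif, and matches to it are shown for the members that carry them next to a transcription start. RefSeq promoter windows of 300 bases (250 before to 50 after a start, build GRCm38.p6) were found for 31 of the 39 members and searched for a pair of p53 decamers, 0 to 13 bases apart, with C and G at positions 4 and 7 of each and at most 2 mismatches in the pair. The motif reads the same on both strands. The pair was found in 6 members, 19.4% of those with a window, and in 4.71% of the 27025 genes that have one. In the lines below the capitals mark the decamers, and each run is given 5′ to 3′ on the strand of its gene.
Cdkn1a: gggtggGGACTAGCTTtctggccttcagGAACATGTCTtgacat
Ccng1: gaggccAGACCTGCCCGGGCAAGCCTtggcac
Trp73: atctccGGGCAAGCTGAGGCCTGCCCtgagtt
Bax: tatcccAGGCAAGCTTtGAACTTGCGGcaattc
Sesn1: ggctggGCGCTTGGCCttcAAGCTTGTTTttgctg
Gadd45a: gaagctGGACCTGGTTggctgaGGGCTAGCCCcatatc
The Cdkn1a run lies at chr17:29090900-29090943 on the plus strand and matched without a mismatch, with 12 bases between the decamers, 73 to 42 bases before a start. The Ccng1 run, at chr11:40755456-40755487 on the minus strand, has adjacent decamers with 1 mismatch. The other runs have 2 mismatches and lie at chr4:154097214-154097245 on the minus strand for Trp73, chr7:45467073-45467105 on the minus strand for Bax, chr10:41887247-41887281 on the plus strand for Sesn1 and chr6:67037432-67037469 on the minus strand for Gadd45a. Adjacent decamers, the closest form of the site, were present in 3 members (Cdkn1a through a second match, Ccng1 and Trp73) and in 0.392% of all genes with a window. A match describes letters, not binding, and windows without a match say nothing about sites farther away.

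The 39 genes held between 0.131% and 0.138% of the reads of a mouse, out of library totals of 16561663 to 18657015 counts. Their summed level was 1350 to 1380 CPM (counts scaled to library size and composition) in RC and 1290 to 1380 CPM in RN, so the ranges of the groups overlapped. The filter on low counts kept 38 members, and Cdkn2a was not tested. With edgeR's quasi-likelihood test, Benjamini-Hochberg adjustment over 14956 tested genes and the study's thresholds (adjusted p under 0.05, fold of at least 2), 0 of the 38 members were called, against 0.0735% of all tested genes (0.0602% called higher and 0.0134% called lower in RN). DESeq2's Wald test called 1 member, Gadd45b, and 0.991% of the 18777 genes it tested. The study, which used DESeq2 with these thresholds, reported more changed genes between RN and RC than either test gave here. The reason for that difference was not tested.
Without adjustment, 8 of the 38 members (21.1%) had a p under 0.05, beside 11.8% of all tested genes. Higher in RN were Gadd45b, Gadd45a, Plk3 and Trp53bp1, 4 members beside 5.44% of all tested genes in that direction. Lower in RN were Ccng1, Sesn1, Trp73 and Perp, 4 members beside 6.33%. The mice of the groups did not overlap for 7 members (18.4%), which are the same genes without Perp, beside 16.3% of all tested genes, 4 of them higher (8.18% of all tested genes) and 3 lower in RN (8.12%). The number of higher members changed when single mice were left out. It was 2 without RC replicate 2, RN replicate 1 or RN replicate 2, and 1 without RC replicate 3, while 4% to 5.12% of all tested genes were higher under these omissions. Fits with 2 mice in a group are also less precise. The log2 fold changes stayed at 0.89 to 1.2 for Gadd45b, 0.31 to 0.67 for Gadd45a, 0.26 to 0.48 for Plk3 and 0.22 to 0.36 for Trp53bp1. The number of lower members without overlap, 3 with all mice, was 7 without RC replicate 1, 5 without RC replicate 3 and 8 without RN replicate 2, and that of higher members, 4 with all mice, was 8 without RN replicate 1. With 2 mice in a group, more genes are free of overlap by construction: the lower ones made up 15.6%, 13.9% and 13.6% of all tested genes under the first 3 of these omissions, and the higher ones 13.6% under the last.
The members as a whole were centred on no change. Of the 38, 19 had a log2 fold change above 0 and 19 below 0, with a median of 0.00, which was also the median of all tested genes, and a range from -1.08 to 1.03. The 95% interval of the fold change lay within a 2-fold difference in either direction for 30 members (78.9%), beside 81.2% of all tested genes. Averaged over the members, with each gene centred on its mean over the 6 mice, log2 CPM was 0.05, 0.07 and -0.06 in RC replicates 1, 2 and 3 and -0.08, 0.04 and -0.02 in RN replicates 1, 2 and 3.

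**Figure D1:**
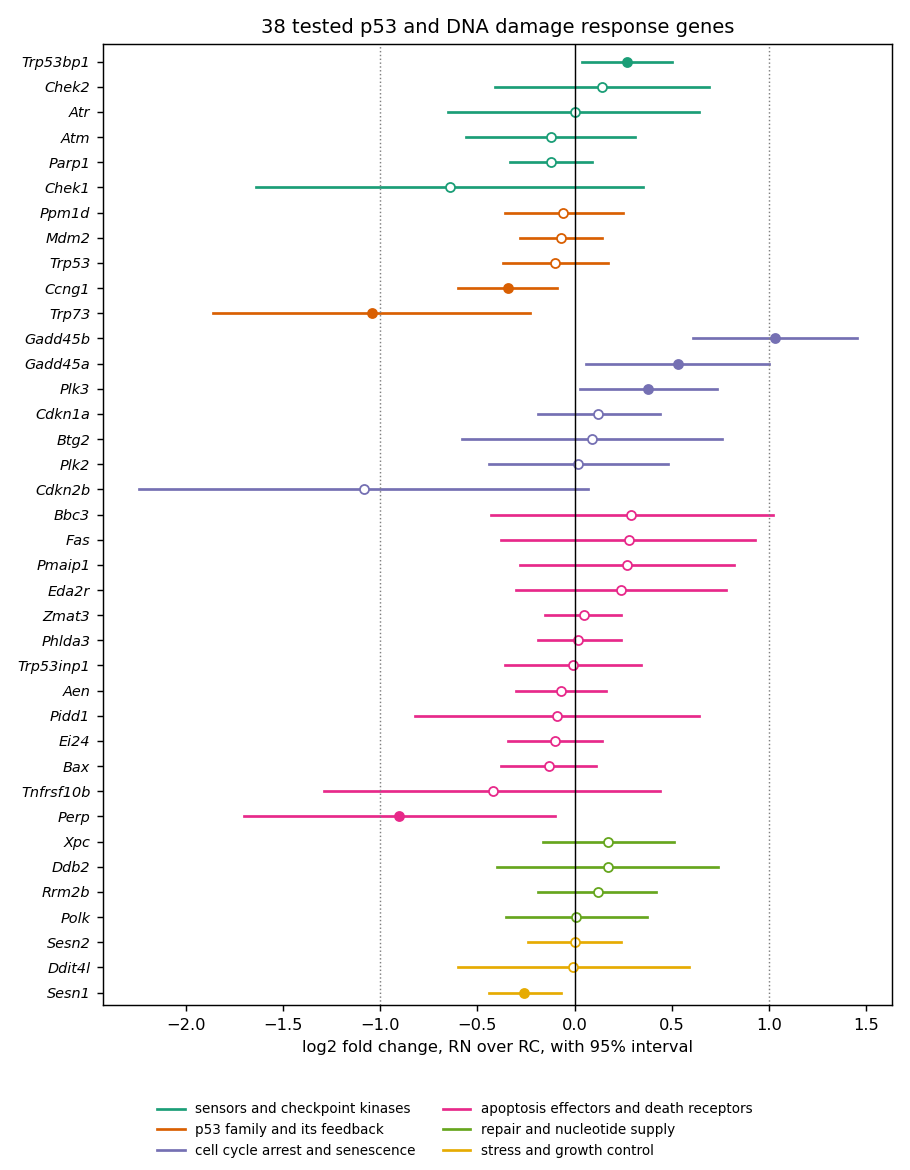
Log2 fold change of RN over RC (x axis) for the 38 tested members (y axis), grouped and coloured by role. Points are edgeR estimates, filled where the unadjusted p is under 0.05, bars are 95% intervals, and dotted lines mark a 2-fold difference. The intervals of 30 members stay between the dotted lines, and Gadd45b, at 1.03, has the highest estimate.

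Measured per length of exon, the most abundant members were the same in both groups. Phlda3, which encodes an inhibitor of the survival kinase AKT, led with 51.2 ± 4.35 CPM per kb in RC and 52.0 ± 2.59 in RN (SD, n = 3 mice each). Ccng1, which encodes cyclin G1, followed with 46.5 ± 6.36 in RC and 36.7 ± 0.609 in RN, and in RC its level and that of Phlda3 did not differ beyond their spread. Next came Cdkn1a, the gene of the cell cycle inhibitor p21, with 29.2 ± 2.83 and 31.9 ± 5.48 CPM per kb, the apoptosis gene Bax with 22.3 ± 1.94 and 20.3 ± 1.27, and Ei24 with 21.6 ± 1.18 and 20.1 ± 2.23. The levels of Bax and Ei24 were within each other's spread in both groups. All 5 were well above Trp53 itself, at 6.52 ± 0.632 and 6.09 ± 0.399 CPM per kb. By this measure the lowest levels were those of Cdkn2a, Atr and Chek1, at 0.393 ± 0.142, 0.355 ± 0.118 and 0.249 ± 0.0205 CPM per kb in RC. The length is the union of all annotated exons, 23.6 kb for Atr, which can exceed that of a transcript. Without division by length, Atr was at 8.4 CPM in RC and Chek1 at 1.16 CPM.

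**Figure D2:**
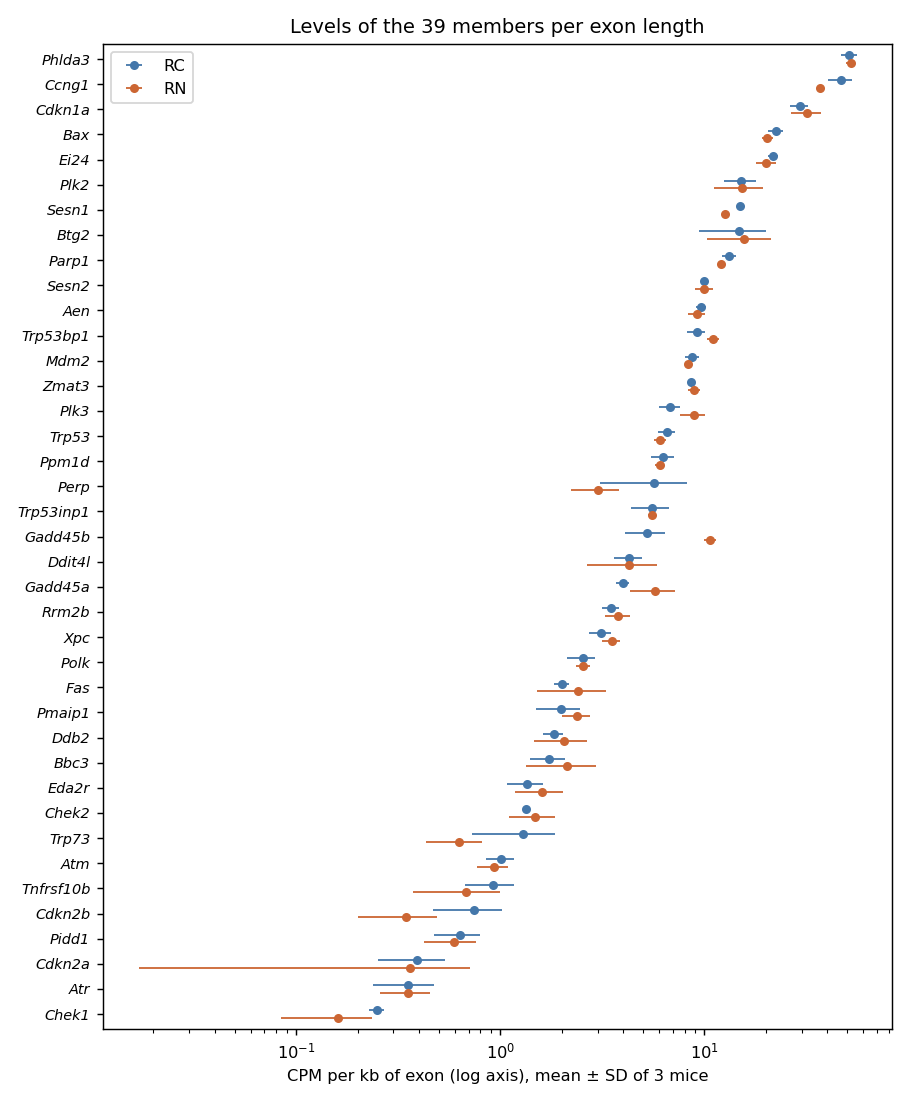
Level of each of the 39 members (y axis, ordered by RC) in CPM per kb of exon on a log axis, as mean ± SD of the 3 RC mice and the 3 RN mice. Phlda3, Ccng1, Cdkn1a, Bax and Ei24 hold the first 5 places in both groups. The bars of the 2 groups overlap for most members, with Gadd45b, Ccng1 and Sesn1 among the exceptions.

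The sensors and checkpoint kinases gave 1 small p among 6 genes. Trp53bp1, which encodes 53BP1, a protein that gathers at double strand breaks and steers them to end joining, was at 145, 120 and 124 CPM in the RC mice against 162, 145 and 162 CPM in the RN mice (values per mouse are given in the order of replicates 1, 2 and 3 throughout). The groups did not overlap, but RC replicate 1 and RN replicate 2 nearly met. The log2 fold change was 0.27 (standard error, SE, 0.101, 95% interval 0.04 to 0.50, unadjusted p = 0.0264, adjusted p = 0.334, both by edgeR).
Atm, the kinase gene for double strand breaks, was at 12, 8.67 and 10.8 CPM in the RC mice against 11.5, 8.88 and 8.5 in the RN mice, with overlapping groups and a log2 fold change of -0.12 (95% interval -0.56 to 0.31). Parp1, whose product marks breaks with poly(ADP-ribose), had a log2 fold change of -0.12 and the narrowest interval of this group, -0.33 to 0.09. Atr, the kinase gene for stalled forks, was alike in mice of the same replicate number, at 11.6 CPM in RC replicate 1 and 11.1 in RN replicate 1 against 6.53 to 7.27 in the other 4 mice. Chek2 overlapped between the groups, at a log2 fold change of 0.14. Chek1, a gene of dividing cells, had 19, 21 and 20 counts in the RC mice against 19, 12 and 8 in the RN mice, too few to bound its difference closely (log2 fold change -0.64, 95% interval -1.64 to 0.35).

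Among p53, its relative p73 and their feedback genes, all 5 log2 fold changes were below 0, with a median of -0.10, which became 0.07 when a score of choroid plexus markers, described below, was added to the model. Trp53 was at 25.3, 29.3 and 24.5 CPM in the RC mice against 23.4, 26.5 and 24.0 in the RN mice. The groups overlapped, and the interval of the log2 fold change, -0.37 to 0.17, lay within a 2-fold difference in either direction. Mdm2, the ubiquitin ligase gene that p53 activates against itself, was at 47.1, 45.0 and 40.3 CPM in the RC mice against 40.8, 42.8 and 42.3 in the RN mice. Its groups overlapped as well, with a log2 fold change of -0.07 (95% interval -0.28 to 0.14, edgeR adjusted p = 0.849). Ppm1d, the gene of the phosphatase WIP1 that turns the damage signal off, had a log2 fold change of -0.06 (95% interval -0.36 to 0.25).
Ccng1, a p53 target whose product brings a phosphatase to MDM2, was at 175, 138 and 177 CPM in the RC mice against 131, 129 and 127 CPM in the RN mice. The RN mice were close together and all below the RC mice, of which RC replicate 2 lay nearest to them. Group means were 163 ± 22.3 CPM (RC) and 129 ± 2.14 CPM (RN, SD of 3 mice each), which gives a log2 fold change of -0.34 (SE 0.110, 95% interval -0.60 to -0.09, unadjusted p = 0.0135, adjusted p = 0.249, both by edgeR). With each mouse left out in turn the value stayed between -0.45 and -0.28, and it was -0.58 with that score in the model. The Ccng1 promoter shown above carries adjacent decamers, as does that of Cdkn1a, whose log2 fold change was 0.12.
Trp73 encodes p73, which besides its part in the damage response is needed for multiciliated cells such as the ependyma. It was at 4.88, 10.7 and 5.84 CPM in the RC mice against 3.33, 2.46 and 4.59 CPM in the RN mice. RC replicate 2 stood far above the other mice, and the remaining RC mice were just above the RN mice. The log2 fold change was -1.04 (SE 0.354, unadjusted p = 0.0181, adjusted p = 0.285, both by edgeR), and -0.63 without RC replicate 2. Markers of the choroid plexus, the tissue that makes cerebrospinal fluid, were lower in RN too: 11 of 12 at an unadjusted p under 0.05, beside 6.33% of all tested genes. Each was detected in every mouse, and their summed level was 340 to 8550 CPM in RC and 79.4 to 159 CPM in RN, highest in RC replicate 2. With their score (the mean centred log2 CPM of the 12 markers) as a covariate, the log2 fold change of Trp73 was -0.40 (edgeR adjusted p = 0.855). The score did not overlap between the groups, so in every value given with it the markers and the virus cannot be told apart. Within RC, the score was higher in replicate 1 than in replicate 3 (1.65 against -0.62), while Trp73 was lower (4.88 against 5.84 CPM).

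The cell cycle arrest and senescence genes held the smallest p of the 39 genes, and 6 of the 7 tested had a log2 fold change above 0, with a median of 0.12 (0.61 with the choroid plexus score, added as above). Gadd45b, a stress-inducible gene of growth arrest that is also induced by neuronal activity, was at 8.24, 10.2 and 6.53 CPM in the RC mice against 15.7, 17.9 and 17.6 CPM in the RN mice. The groups were far apart, with every RN mouse above 15 CPM. Group means were 8.33 ± 1.85 CPM (RC) and 17 ± 1.17 CPM (RN, SD of 3 mice each), or a log2 fold change of 1.03 (SE 0.183, 95% interval 0.61 to 1.45) with an unadjusted p of 0.000449 and an adjusted p of 0.0932 from edgeR, which missed the threshold. DESeq2's Wald test gave a log2 fold change of 1.04 with an adjusted p of 0.00022. By its p from edgeR, Gadd45b stood at place 72 of the 14956 tested genes, and its log2 fold change lay between 0.89 and 1.2 with each mouse left out in turn.
Gadd45a, its p53-dependent relative, was at 7.52, 7.05 and 6.47 CPM in the RC mice against 8.09, 12.9 and 9.34 in the RN mice. The groups did not overlap, but RN replicate 2 stood out and RN replicate 1 was close to RC. The log2 fold change was 0.53 (SE 0.205, unadjusted p = 0.0315, adjusted p = 0.355, both by edgeR) and 0.31 without RN replicate 2. Plk3, a stress-responsive polo-like kinase gene, was at 16.9, 19.4 and 15.3 CPM in the RC mice against 21.8, 25.8 and 19.5 in the RN mice, so that RC replicate 2 and RN replicate 3 nearly met. Its log2 fold change was 0.38 (SE 0.151, unadjusted p = 0.0356, adjusted p = 0.375, both by edgeR).
Cdkn1a, the classical arrest target of p53, overlapped between the groups. It was at 94.1, 114 and 103 CPM in the RC mice against 92.5, 131 and 116 CPM in the RN mice, with RN replicate 1 lowest of all mice. Group means were 104 ± 10.1 CPM (RC) and 113 ± 19.5 CPM (RN, SD of 3 mice each), or a log2 fold change of 0.12 (SE 0.138, edgeR adjusted p = 0.813), and the 95% interval reached from a fold of 0.875 to 1.36. The exact two-sided permutation test of Cdkn1a gave p = 0.6, where 3 against 3 mice cannot go below 0.1.
Btg2, an antiproliferative p53 target and immediate early gene, was highest in replicate 2 of both groups, at 56.7 CPM in RC and 59.9 in RN against 28.9 to 35.7 in the other 4 mice, and its log2 fold change of 0.09 was within that spread (0.82, unadjusted p = 0.0693 by edgeR, with the choroid plexus score in the model). Plk2, a neuronal polo-like kinase gene, overlapped between the groups with a log2 fold change of 0.02. The senescence loci were barely detected. Cdkn2a, the gene of p16 and ARF, had 11, 8 and 5 counts in the RC mice against 15, 3 and 4 in the RN mice, and Cdkn2b, the gene of p15, had 21, 10 and 23 counts in the RC mice against 5, 13 and 8 in the RN mice. The groups overlapped for both, and the log2 fold change of Cdkn2b, -1.08, had a 95% interval from -2.24 to 0.07 (edgeR adjusted p = 0.458) and was -1.72 with that score.

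**Figure D3:**
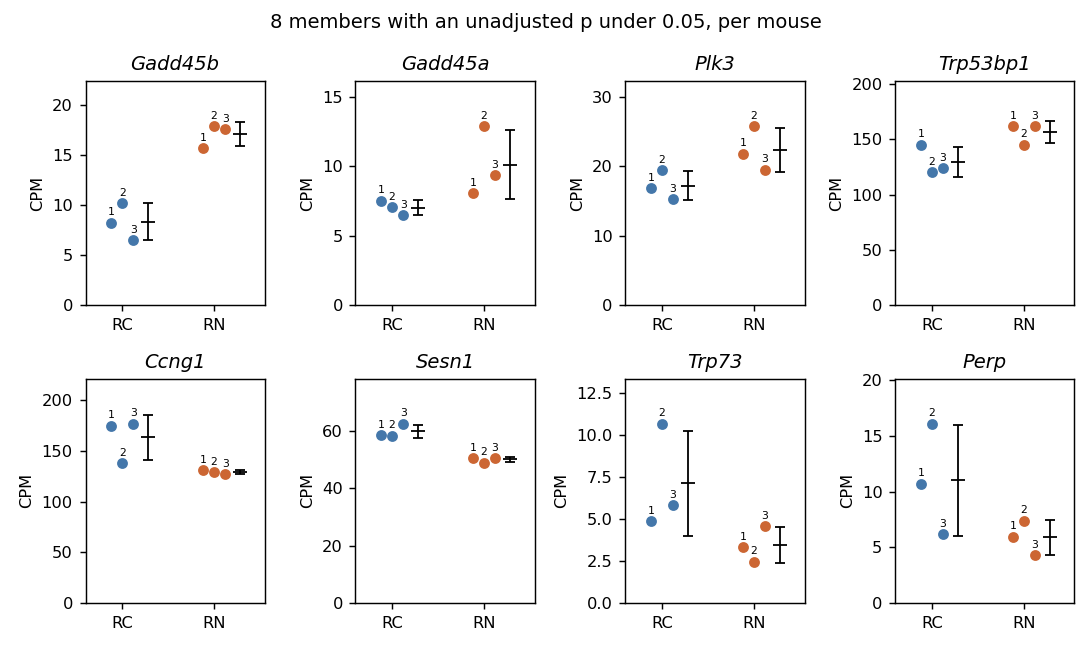
CPM (y axis, from 0) of the 8 members with an unadjusted p under 0.05, with 1 point per mouse marked by its replicate number and the mean ± SD of 3 mice beside each group. Gadd45b shows the widest gap in proportion to its level, RC replicate 2 lifts the RC means of Trp73 and Perp, and the groups of Perp overlap.

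Of the 13 apoptosis genes, 6 had a log2 fold change above 0 and 7 below, with a median of -0.01 and 1 unadjusted p under 0.05, that of Perp. Phlda3 was at 72.0, 84.6 and 82.7 CPM in the RC mice against 81.4, 85.0 and 76.9 in the RN mice. The groups overlapped fully, and the log2 fold change of 0.02 had a 95% interval of -0.19 to 0.24, that is from a fold of 0.876 to 1.18. Bax, whose product opens the mitochondrial membrane, was at 32.8, 38.6 and 34.0 CPM in the RC mice against 32.2, 33.9 and 29.9 in the RN mice, with overlapping groups and a log2 fold change of -0.13 (95% interval -0.38 to 0.11, edgeR adjusted p = 0.719). Zmat3, an RNA-binding p53 target, was as steady, with a log2 fold change of 0.05 (95% interval -0.15 to 0.24).
Eda2r, a death receptor gene of the TNF receptor family that p53 activates, was at 9.76, 7.29 and 6.87 CPM in the RC mice against 9.04, 12.1 and 7.16 in the RN mice. RN replicate 2 was highest and the other RN mice lay inside the RC range, and the log2 fold change of 0.24 had a wide 95% interval of -0.30 to 0.78. The death receptor gene Fas was likewise highest in RN replicate 2, at 7 CPM against 3.39 to 4.53 in the other 5 mice. Its counterpart Tnfrsf10b, the mouse TRAIL receptor gene, was lowest in RN replicate 1, at 1.84 CPM against 3.78 to 6.45.
The BH3-only genes Bbc3 (PUMA) and Pmaip1 (NOXA) had log2 fold changes of 0.29 and 0.27 with overlapping groups. Ei24, Aen and Trp53inp1, abundant targets that act in the endoplasmic reticulum, as a nuclease and in autophagy, had log2 fold changes of -0.10, -0.07 and -0.01, and the intervals of all 3 stayed between -0.36 and 0.34. Pidd1, a partner of caspase activation, was at 2.02 to 3.52 CPM over the 6 mice.
Perp, a membrane gene of desmosomes and epithelia as well as a p53 target, was at 10.7, 16.1 and 6.19 CPM in the RC mice against 5.95, 7.38 and 4.31 in the RN mice. RC replicate 2 was highest again, and RC replicate 3 lay within the RN range. The log2 fold change was -0.90 (SE 0.349, unadjusted p = 0.0317, adjusted p = 0.355, both by edgeR). With replicate number as a block in the model it was -0.85 (unadjusted p = 0.00324 by edgeR). It was -0.52 without RC replicate 2 and 0.18 once the choroid plexus score was added to the model. That score was 1.65, 2.96 and -0.62 in the RC mice against -1.51, -1.36 and -1.12 in the RN mice.

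**Figure D4:**
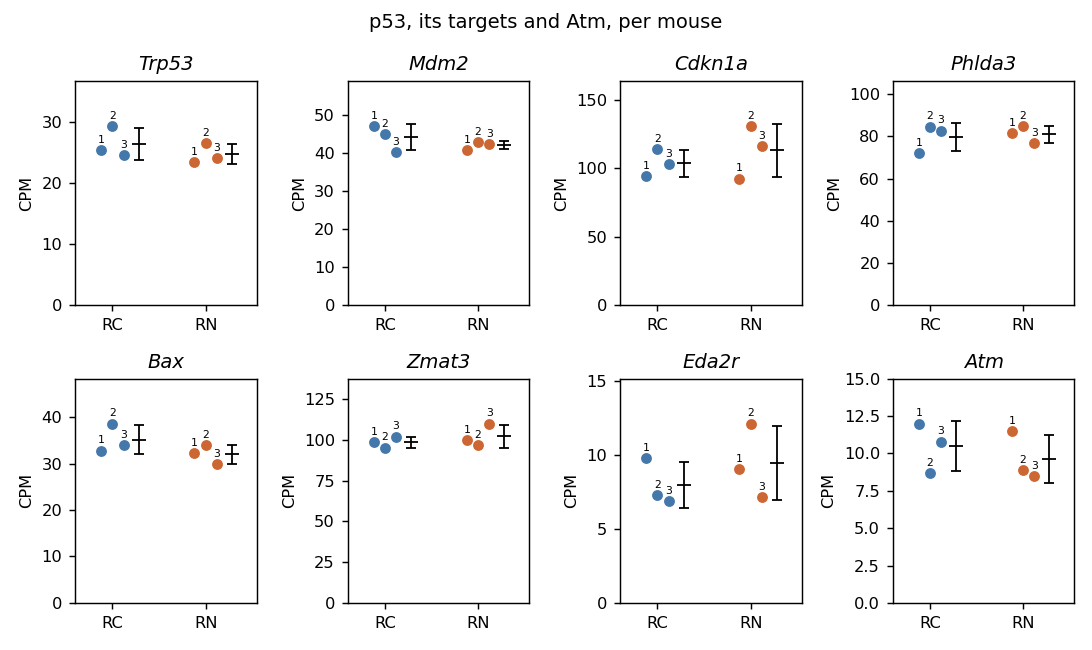
CPM (y axis, from 0) of Trp53, 6 of its targets (Mdm2, Cdkn1a, Phlda3, Bax, Zmat3 and Eda2r) and Atm, with 1 point per mouse marked by its replicate number and the mean ± SD of 3 mice beside each group. The RC and RN mice overlap in all 8 panels.

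The 4 repair and nucleotide genes all had log2 fold changes above 0, from 0.01 to 0.17, with overlapping groups and no unadjusted p under 0.05. Xpc and Ddb2, which encode sensors of nucleotide excision repair, both had 0.17, Rrm2b, the ribonucleotide reductase subunit gene that p53 induces, had 0.12, and Polk, a translesion polymerase gene, had 0.01. Their median of 0.14 was -0.03 without RN replicate 1, the mouse with the highest Ddb2 (7.44 CPM) and Rrm2b (40.4 CPM).
Of the stress and growth control genes, which restrain mTORC1, Sesn1 was at 58.6, 58.4 and 62.6 CPM in the RC mice against 50.6, 49.0 and 50.6 CPM in the RN mice. Mice of a group were within a few CPM of each other, and the groups did not overlap. Group means were 59.8 ± 2.36 CPM (RC) and 50.1 ± 0.930 CPM (RN, SD of 3 mice each), which gives a log2 fold change of -0.26 (SE 0.0798, 95% interval -0.44 to -0.07, unadjusted p = 0.0118, adjusted p = 0.235, both by edgeR), with values from -0.27 to -0.22 when each mouse was left out. Its relative Sesn2, which is also induced through ATF4, averaged 34.8 ± 1.01 CPM (RC) and 34.8 ± 3.50 CPM (RN), with a log2 fold change of 0.00 and a 95% interval of -0.24 to 0.24. Ddit4l, an mTORC1 inhibitor gene, was highest in RN replicate 3, at 17.8 CPM against 9.70 to 14.7 in the other 5 mice.

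Of the 6 members with a p53 match in their promoter window, 4 (Ccng1, Sesn1, Trp73 and Gadd45a) were among the 8 with an unadjusted p under 0.05, in both directions, and Cdkn1a and Bax were not. Of the 24 tested members whose window held no match, 3 had such a p. Beside both counts stand 11.8% of all tested genes, and the share among all genes with a match was not computed. The search was set up with these values known, and a link between a match and the difference was not tested. The median log2 fold change was -0.20 over these 6 and 0.00 over those 24.

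The wider pathway was described with further lists. Of 24 other p53 targets and regulators, all tested, 0 were called by edgeR, beside 0.0735% of all tested genes. At an unadjusted p under 0.05, 1 was higher and 2 were lower, beside 5.44% and 6.33% of all tested genes. The median log2 fold change was 0.05. Spata18, a p53 target gene of mitochondrial quality control, was at 5.72, 5.32 and 4.30 CPM in the RC mice against 1.61, 2.41 and 2.18 in the RN mice, without overlap, a log2 fold change of -1.30 (SE 0.254, unadjusted p = 0.000848, adjusted p = 0.107, both by edgeR). Cd82, a tetraspanin gene, was at 64.6, 77.9 and 57.5 CPM in the RC mice against 51.9, 53.1 and 49.5 in the RN mice, without overlap (log2 fold change -0.37, SE 0.119, edgeR adjusted p = 0.251). Apaf1, the apoptosome gene, was at 14.5, 15.5 and 12 CPM in the RC mice against 16.4, 19.4 and 17.8 in the RN mice, also without overlap (log2 fold change 0.35, SE 0.146, edgeR adjusted p = 0.399). The secreted target Gdf15, with 35 to 59 counts per mouse, and the p53 inhibitor Mdm4 overlapped between the groups, at log2 fold changes of -0.14 and 0.01.
Of 36 genes of DNA break signalling and repair, 0 were called by edgeR and 0 had an unadjusted p under 0.05, beside 11.8% of all tested genes. The groups did not overlap for 2 of the 36, beside 16.3% of all tested genes. The smallest p values were those of Ercc4, Fanca and Nbn, at log2 fold changes of 0.22 (SE 0.120), 0.81 (SE 0.484) and -0.27 (SE 0.169), with edgeR adjusted p values of 0.562, 0.597 and 0.614. Fanca had at most 17 counts in a mouse.
Among all tested genes, 5.44% were higher and 6.33% lower at an unadjusted p under 0.05. Of 16 tested genes of senescence and its secreted factors, 4 were higher and 0 lower at such a p, and 0 were called. Those 4 were not arrest genes but the proteases Mmp12 and Mmp3, the protease inhibitor Timp1 and the cytokine Il1a, of which Mmp3 had only 1 to 39 counts per mouse. Mmp12, a macrophage elastase gene, was at 11.6, 16.0 and 12.5 CPM in the RC mice against 34.9, 66.7 and 82.8 in the RN mice (log2 fold change 2.2, edgeR adjusted p = 0.0630). Timp1 was at 2.36, 5.32 and 4.07 CPM in the RC mice against 7.44, 17.2 and 11.7 in the RN mice (log2 fold change 1.64, SE 0.371, edgeR adjusted p = 0.136), and Il1a at 2.47, 2.57 and 1.43 CPM in the RC mice against 3.93, 5.13 and 4.59 in the RN mice (log2 fold change 1.08, SE 0.287, edgeR adjusted p = 0.188). The groups did not overlap for either. Lmnb1, the lamin gene whose loss marks senescent cells, had a log2 fold change of -0.17 and overlapping groups.
The immediate early and stress-induced genes, 20 in number, held 7 that were higher and 1 that was lower at an unadjusted p under 0.05. Beside them stand 5.44% and 6.33% of all tested genes. Of the 20, 1, Atf3, was called by edgeR, beside 0.0735% of all tested genes. Atf3, a transcription factor gene of injured neurons, was at 11.6, 10.9 and 15.4 CPM in the RC mice against 29.0, 39.2 and 38.9 in the RN mice (log2 fold change 1.5, adjusted p = 0.0419). The activity genes Npas4 and Fosb followed with 1.90 and 1.14 (adjusted p = 0.0696 and 0.176 from edgeR). The mean centred log2 CPM of this list was -0.30, 0.02 and -0.19 in the RC mice against -0.07, 0.32 and 0.22 in the RN mice, so RN replicates 2 and 3 were above every RC mouse, as they were the highest of all for Gadd45b. RN replicate 1 was below RC replicate 2 on the list, but above it for Gadd45b (15.7 against 10.2 CPM). The part of this list in the Gadd45b values was not tested. Of 12 proliferation genes 1, Ube2c, was higher at an unadjusted p under 0.05 and 0 were lower, beside the same shares of all tested genes, 5.44% and 6.33%.

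**Figure D5:**
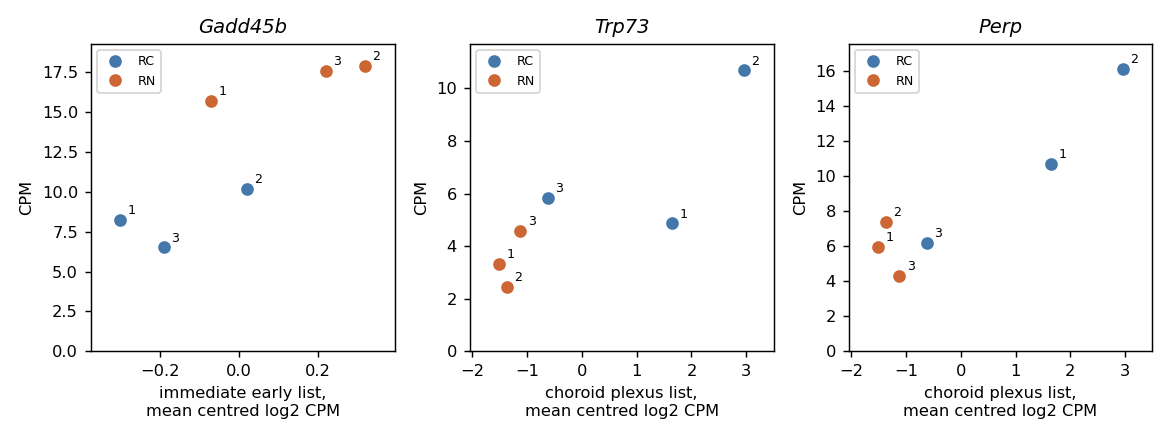
CPM (y axis, from 0) of Gadd45b against the mean centred log2 CPM of the immediate early and stress-induced list, and of Trp73 and Perp against that of the choroid plexus list, with 1 point per mouse marked by its replicate number. RN replicates 2 and 3 are highest on both axes for Gadd45b, and RC replicate 2 is highest on both axes for Trp73 and Perp. RN replicate 1 is below RC replicate 2 on the immediate early list but above it for Gadd45b. RC replicate 1 is above RC replicate 3 on the choroid plexus list but below it for Trp73.

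The markers of thalamic neurons were present in all mice, with a summed level of 834 to 1760 CPM in RC and 603 to 1190 CPM in RN. All 8 had a log2 fold change below 0, with a median of -0.54, and 0 had an unadjusted p under 0.05. Markers of other cells moved with the groups beside the values above. Of 8 astrocyte and 8 endothelial markers, 5 each were lower in RN at an unadjusted p under 0.05, beside 6.33% of all tested genes. Summed levels in RC and RN were 4870 to 6160 against 3390 to 4440 CPM and 383 to 444 against 267 to 346 CPM. Of 10 tested hypothalamic markers 6 were higher at such a p, beside 5.44% of all tested genes, and edgeR called 2, Gal and Gpr50. The summed level of the hypothalamic markers was 59.1 to 225 CPM in RC and 334 to 471 CPM in RN. An unadjusted p under 0.05 was found for 0 of 8 pan-neuronal, 1 of 8 oligodendrocyte (lower) and 1 of 8 microglia and macrophage markers (higher). It was also found for 2 of 7 T cell markers (lower), and for 11.8% of all tested genes. These markers, like those above, differed between the groups to varying degrees. With the choroid plexus score in the model, the log2 fold change was 1.53 for Gadd45b (edgeR adjusted p = 0.128) and 0.65 for Gadd45a. It was 0.61 for Plk3, 0.27 for Trp53bp1 and -0.58 for Ccng1. The part of the other markers in the values of these genes and of Sesn1 was not tested gene by gene. With the endothelial score as a covariate, 2 members were higher and 0 lower at an unadjusted p under 0.05, beside 5.17% of all tested genes in both directions together. With the astrocyte score 3 were higher and 3 lower, beside 10.9% of all tested genes. Both of these fits were added after seeing the data.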

How the data were processed

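The authors deposited whole-number read counts per gene, 1 column per mouse, without normalization. The submitters' processing notes name fastp 0.18.0, FastQC, HISAT2 2.2.4, RSEM 1.2.19 and build GRCm39. Annotation, strand use and the treatment of shared reads are not given in the sources used here, so overlapping genes cannot be separated. Labels gave groups and replicate numbers. The study's text speaks of the samples of a group as mice.

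Genes of low count were removed with filterByExpr (minimum count 10) in edgeR 4.0.16 (R 4.3.3), and TMM normalization and a quasi-likelihood model of group alone were applied to all 14956 remaining genes. Standard errors are the log2 coefficient over the root of F, and 95% intervals use its t distribution. These intervals are not adjusted. Alternatives were DESeq2 1.42.0 (the tool of the study's methods), its size factors, other filters, edgeR's legacy option, a replicate block, marker scores as covariates and omission of each mouse. Scripts were tested on simulated data. Exon lengths came from GENCODE M21 (GRCm38), as the union of all annotated exons of a gene. Totals of about equal size give similar precision, and floors cover counting error only.

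Members, lists and tests were chosen with earlier results of these data known. Every member is accounted for, and full values were given for Trp53, Cdkn1a, Mdm2, Ccng1, Phlda3, Eda2r, Bax, Cdkn2a, Atm and members with an unadjusted p under 0.05 or without overlap, and up to 3 genes of each pathway list were chosen by smallest p, some with fewer values. Other genes were named after their values were seen. Of the list entries, Trp53cor1 was not matched. RC and RN share replicate numbers, which no source ties to a litter or day. Within-group deviations correlated across genes at 0.173, 0.120 and 0.209 for replicates 1, 2 and 3, and RC replicate 1 correlated with RN replicate 2 at 0.156. The remaining pairs of unlike number lay between -0.285 (RC replicate 1 with RN replicate 3) and 0.0603 (RC replicate 2 with RN replicate 3). All same-number values passed the minimum of 0.1 set for pairing, and the block is given as an alternative, while printed p-values come from the model of group alone unless another model is named. Pairs of libraries, within and across groups, differed by 16.3 to 44.3 times counting noise. No library was thus a repeat of another within counting noise, which does not by itself show separate mice. Each was treated as 1 mouse, following the study's text.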

Additional observations from a re-analysis of the deposited data

How the results depend on the processing

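No member was called by edgeR under any alternative run, and DESeq2's Wald test called 1, Gadd45b. Over all tested genes, edgeR called 0 to 43 under these settings and DESeq2 called 186 of 18777. The replicate block changed no call: 0 members were called, and Gadd45b had an adjusted p of 0.0956. At an unadjusted p under 0.05, 4 members were higher and 4 lower, beside 13.6% of all tested genes. Single p values from edgeR moved both ways under the block. That of Perp went from 0.0317 to 0.00324, that of Plk3 from 0.0356 to 0.0116 and that of Trp73 from 0.0181 to 0.0387. With the choroid plexus score added to the model, 2 members were higher and 3 lower at an unadjusted p under 0.05, beside 9.05% of all tested genes, and the median log2 fold change was 0.11 over all members, 0.07 for the p53 family and 0.61 for the arrest genes. With the endothelial score, which like the astrocyte score was added after seeing the data, 2 members were higher and 0 lower, beside 5.17% of all tested genes. These scores and the astrocyte score do not overlap between the groups, so their effect and that of the virus cannot be told apart. The cause of these shifts was not tested.

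With each mouse left out in turn, the count of called members stayed at 0, that of higher members at an unadjusted p under 0.05 was 1 to 3 and that of lower members 3 to 4, and members without overlap numbered 4 to 8 in each direction. Medians ranged from -0.05 to 0.01 over all members, -0.20 to 0.07 for sensors and kinases, -0.16 to -0.06 for the p53 family, 0.06 to 0.30 for arrest, -0.05 to 0.05 for apoptosis, -0.03 to 0.18 for repair and -0.26 to 0.08 for stress genes.

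Of the comparisons of single members with an alternative, 445 kept direction and side of the threshold, 46 reversed and 1 (Gadd45b with DESeq2) passed it. Under the replicate block they were Atr at 0.01, Trp53inp1 at 0.01 and Sesn2 at 0.00, and Sesn2 was also at 0.00 without a filter and with at least 10 counts in every mouse. With the choroid plexus score they were Atr 0.14, Trp53 0.08, Mdm2 0.07, Ppm1d 0.19, Pmaip1 -0.14, Tnfrsf10b 0.21, Perp 0.18, Pidd1 0.46, Zmat3 -0.01, Polk -0.16, Rrm2b -0.08 and Ddit4l 0.34. With mice left out, log2 fold changes ran from -0.25 to 0.30 for Atr, -0.09 to 0.27 for Chek2, -0.13 to 0.05 for Ppm1d, 0.00 to 0.25 for Cdkn1a, -0.23 to 0.41 for Btg2, -0.23 to 0.15 for Plk2, -0.02 to 0.52 for Bbc3, -0.06 to 0.49 for Fas, -0.33 to 0.08 for Pidd1, -0.04 to 0.07 for Phlda3, -0.01 to 0.08 for Zmat3, -0.15 to 0.15 for Trp53inp1, -0.08 to 0.34 for Ddb2, -0.10 to 0.12 for Polk, -0.01 to 0.18 for Rrm2b, -0.07 to 0.08 for Sesn2 and -0.36 to 0.14 for Ddit4l. Overlap was not computed for the block, the covariates or DESeq2, and Chek1 and Cdkn2b had no value under the strict filter.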
